A study of Homo sapiens with 2 samples.

Results

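The 10 genes described here encode cytosolic aminoacyl-tRNA synthetases that work outside the multi-synthetase complex. They were taken by Ensembl ID from a fixed list that pairs each ID with its older gene symbol. All 10 were found among the 57820 IDs of the deposited table. They are AARS (ENSG00000090861, alanine), CARS (ENSG00000110619, cysteine), GARS (ENSG00000106105, glycine), HARS (ENSG00000170445, histidine), NARS (ENSG00000134440, asparagine), SARS (ENSG00000031698, serine), TARS (ENSG00000113407, threonine), VARS (ENSG00000204394, valine), WARS (ENSG00000140105, tryptophan) and YARS (ENSG00000134684, tyrosine).

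An aminoacyl-tRNA synthetase joins its amino acid to the matching tRNA, and the charged tRNA then delivers that amino acid to the ribosome. The enzymes fall into separate structural classes: CARS, VARS, WARS and YARS belong to class I, and AARS, GARS, HARS, NARS, SARS and TARS to class II. Several synthetase genes are known targets of ATF4, the transcription factor that responds to amino acid shortage by binding C/EBP-ATF response elements in DNA. These proteins are needed for translation in every cell type.

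The study profiled ribosome-protected fragments in HEK293 cells, an established line derived from human embryonic kidney. Both libraries came from cells given DMSO vehicle for 12 h, replicate 1 in batch 1 and replicate 2 in batch 2, from 2 plates of 15 cm each, so there was 1 group and no contrast between conditions. Fragments of 27 to 29 nt were counted per gene, giving 865838 counts in replicate 1 and 611266 in replicate 2. The labels do not say that the libraries came from separate cultures, so a spread over 2 libraries may be partly technical. Each batch held 1 library, so batch cannot be told apart from replicate. HEK293 markers were not checked, since no table used here pairs other Ensembl IDs with names.

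RefSeq promoter windows, from 250 bases before to 50 after a transcript start on GRCh38.p14, were found for 8 of the 10 genes, with YARS and VARS not matched. In 5 of these 8 genes a window held TGATGNAA, the core of the C/EBP-ATF response element that ATF4 binds, searched on both strands. The same letters occurred in 3.60% of the 15843 protein-coding genes with a window. Counted by window, they occurred in 5 of the 13 windows of the 8 genes and in 3.62% of all 35116 windows. The full match was TGATGCAA in AARS, CARS, NARS and TARS, a sequence held by 0.903% of protein-coding genes. GARS differed from these in the variable base. The 5 matches are shown because the genes that hold them make up most of the members whose windows were matched. Each is given with 11 flanking bases on either side, 5′ to 3′ on the gene's strand, and capitals mark the match.
AARS: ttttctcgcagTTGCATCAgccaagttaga
CARS: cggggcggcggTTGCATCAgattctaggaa
GARS: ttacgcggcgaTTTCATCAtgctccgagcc
NARS: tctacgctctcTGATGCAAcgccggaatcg
TARS: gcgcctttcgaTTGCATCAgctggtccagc

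In NARS the match lay on the gene's own strand, and in the other 4 it lay on the opposite strand, so that the reverse complement is printed. The AARS stretch lies at chr16:70289675-70289704 on the minus strand. As printed on the gene's strand, its match has its 5′ end at position -187, where the first transcribed base is position 1. Positions below are given in the same way. The match of CARS, in the stretch at chr11:3057407-3057436 on the minus strand, spans the start, beginning at position -2. CARS, GARS and TARS have 2 windows each, and their positions are counted from the start used for the window that held the match. In GARS, the stretch at chr7:30594834-30594863 on the plus strand has its match at position -33 from the downstream start. The stretches of NARS, at chr18:57621804-57621833 on the minus strand, and TARS, at chr5:33440956-33440985 on the plus strand, hold the match within the transcript, at bases 15 and 3. These are letter matches in a window and not measured binding sites.

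Further motifs were searched in the same windows, each on both strands. GGGCGG, the GC box, occurred in 7 of the 8 genes against 64.3% of protein-coding genes, and CCAAT in 5 against 42.1%. TATAAA was found in GARS and WARS (12.4% of protein-coding genes) and CACATG in AARS (11.5%). Neither CACGTG (10.9%) nor TGACGTCA (3.00%) was found in the windows of the 8 genes. TGATGCAA is a form of TGATGNAA, and none of the other motifs contains another. The highest GC content of a gene's windows had a median of 65.3% over the 8 genes (61.0% to 72.7%), beside 64.7% over protein-coding genes.

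HARS held none of the TGATGNAA matches, and neither did SARS or WARS, which were both lower in replicate 2. HARS was higher there, and its ratio between the libraries stood apart from those of the other genes. RefSeq places its start head to head with that of HARS2, the gene of the mitochondrial histidyl-tRNA synthetase. The bases between both starts are shown because HARS is the gene whose ratio stood apart. Whether promoter sequence bears on the ratio between the libraries was not tested. This stretch of 84 bases lies at chr5:140691371-140691454 on GRCh38.p14 and is printed on the minus strand, the strand of HARS.
HARS: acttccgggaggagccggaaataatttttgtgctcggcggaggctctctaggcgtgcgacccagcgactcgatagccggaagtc

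WARS also had a head-to-head coding neighbour, WDR25, with 158 bases from start to start. Such a neighbour within 1000 bases was found for 10.3% of protein-coding genes, and for none of the other 6 genes with windows.

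The 10 genes together held 1265 counts in replicate 1 and 707.5 in replicate 2. This was 0.146% of all counts in replicate 1 (95% exact Clopper-Pearson interval 0.138 to 0.154) and 0.116% in replicate 2 (0.107 to 0.125), or 0.131% ± 0.0215 (SD, n = 2). The share was lower in replicate 2, and its intervals did not overlap. By library size most other IDs were lower there too: only 33.5% of IDs with at least 100 summed counts were higher, and their median log2 ratio was -0.18. The 2 highest IDs of the file took 17.6% of replicate 1 and 23.2% of replicate 2. Intervals here cover counting error only, and may be too narrow even for that, because PCR copies of a fragment are counted as if independent. Counts per 1000000 counts of a library (CPM) below are scaled by library size, and ratios between libraries by TMM, a scaling that discounts the highest and most changed IDs.

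Among the class II enzymes, TARS, which charges threonine, had the most fragments of the set in replicate 1 and on average. It had 247 counts in replicate 1 and 128 in replicate 2, or 285 and 209 CPM. NARS, the asparaginyl enzyme, had 194 and 103 counts, or 224 and 168 CPM. GARS, whose gene supplies glycyl-tRNA synthetase to the mitochondria as well as the cytosol, had 190 and 94 counts, or 219 and 154 CPM. All of these were lower in replicate 2.

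AARS, an enzyme that also clears wrong amino acids from its tRNA, had 165 and 81 counts, or 191 and 133 CPM. SARS, which serves serine tRNAs and the tRNA on which selenocysteine is made, had 154 and 73 counts, or 178 and 119 CPM. HARS, the histidyl enzyme and the Jo-1 autoantigen of myositis, had 117 and 130 counts, or 135 and 213 CPM. It ranked 6 of the set by counts in replicate 1 and 1 in replicate 2. HARS was the only gene of the set with more counts in the shallower library.

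The class I enzymes with counts were lower than the class II enzymes in both libraries, per gene and not per length. CARS, the cysteinyl enzyme, had 73 and 42.5 counts, or 84.3 and 69.5 CPM, and its value in replicate 2 was the only one of the set not within 0.001 of a whole number. WARS, an enzyme known to be induced by interferon gamma, had 63 and 25 counts, or 72.8 and 40.9 CPM. YARS, the tyrosyl enzyme, had 62 and 31 counts, or 71.6 and 50.7 CPM. The 3 genes together made up 15.7% of the set's counts in replicate 1 and 13.9% in replicate 2.

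**Figure D1:**
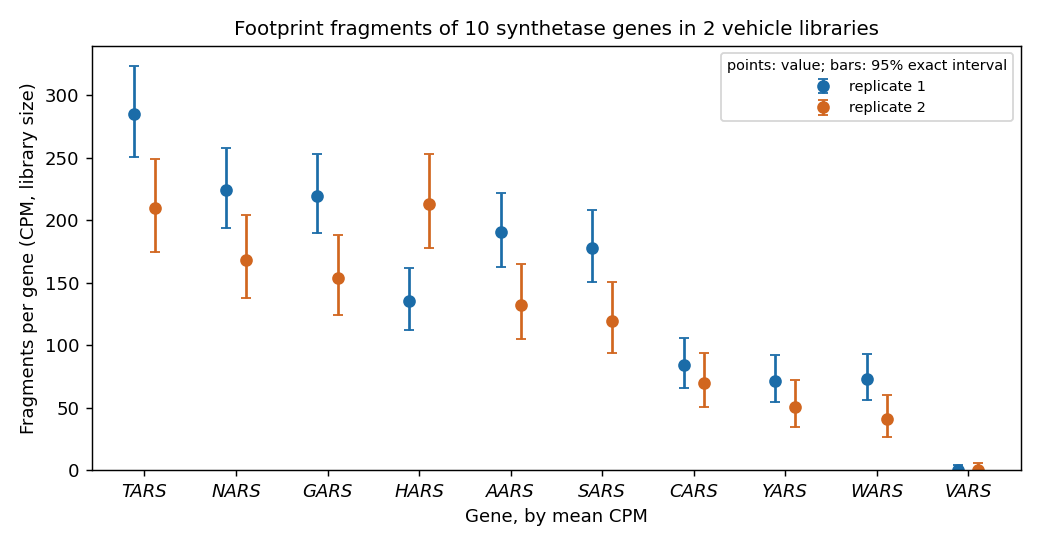
Fragments per gene in CPM by library size (y axis) for the 10 genes ordered by mean CPM (x axis); points are the 2 vehicle libraries and bars are 95% exact intervals of counting error. TARS is highest in replicate 1, with 285 CPM, HARS is the only gene with replicate 2 above replicate 1, and VARS is at 0 in both.

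A longer coding sequence gathers more fragments at the same density of ribosomes, and no coding lengths were used here, so these values do not order the genes by translation. Per gene, the mean TMM-scaled CPM of TARS was 4.37 times that of WARS, with a ratio of highest to lowest gene of 3.98 in replicate 1 and 5.20 in replicate 2. In order of mean TMM-scaled CPM the genes ran TARS, NARS, GARS, HARS, AARS, SARS, CARS, YARS and WARS. Of the 8 pairs of neighbours in this order, 5 had overlapping values over the 2 libraries. The separate pairs under TMM scaling were TARS above NARS, SARS above CARS and CARS above YARS, and by library size SARS above CARS was the 1 separate pair. Compared within each library, 5 of the 8 pairs had the same order in both: these 3, NARS above GARS and AARS above SARS. TARS ranked 505 among the 14944 IDs above 0 in replicate 1, and YARS, the lowest there, ranked 2181.

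VARS, the valyl enzyme and a partner of elongation factor 1, was listed at 0 in both libraries. The one-sided limit taken for a count of 0 was 3 counts, or 3.46 CPM in replicate 1 and 4.91 CPM in replicate 2, and the two-sided 95% exact interval reached 4.26 and 6.03 CPM. Both cover counting error only. Of the 100 IDs nearest to VARS in the table, 50 on each side, 98 were also at 0 in both libraries. VARS stood within a run of 57 consecutive IDs at 0. Around the other 9 genes, 54 to 84 of the 100 nearest IDs were at 0, and 71.5% of all IDs in the file were. Of the 57720 stretches of 101 rows in the file, 1.69% held at least as many IDs at 0 as the one centred on VARS. Whether the authors' counting has a part in the 0 of VARS was not tested. The value is therefore not read as a lack of translation.

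**Figure D2:**
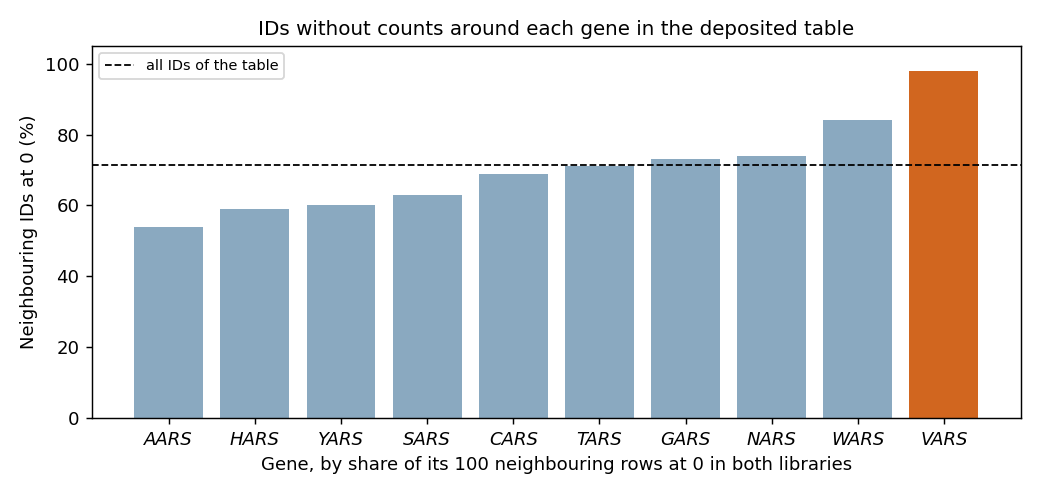
Share of the 100 nearest IDs in the deposited table that are at 0 in both libraries (y axis, %) for each of the 10 genes (x axis); the dashed line is the share over all IDs, 71.5%. VARS stands at 98%, above WARS at 84% and the other 8 genes.

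Between the libraries, 8 of the 9 genes with counts were lower in replicate 2 after TMM scaling and HARS was higher. As background, 2239 IDs reached 100 summed counts with a count in both libraries, and 56.9% of them were lower in replicate 2. Of the genes, 7 passed that minimum, and 6 of these 7 were lower. WARS and YARS had 88 and 93 summed counts. Among IDs with at least 20 summed counts, which takes in all 9, 50.4% were lower. The median log2 ratio of replicate 2 over replicate 1 was -0.39 over the 9 genes and -0.07 over the 2239 IDs.

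The ratios of the 8 lower genes lay within a range of 0.54 on the log2 scale. WARS had the lowest log2 ratio, -0.72 (95% exact binomial interval -1.45 to -0.03), and CARS the nearest to equal, -0.19 (-0.77 to 0.38). SARS had -0.47 (-0.89 to -0.05), AARS -0.41 (-0.82 to -0.02) and GARS -0.40 (-0.78 to -0.04). YARS had -0.39 (-1.06 to 0.26), TARS -0.34 (-0.66 to -0.02) and NARS -0.30 (-0.66 to 0.05). The intervals of these 8 all overlapped each other.

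HARS had a log2 ratio of 0.76 (0.39 to 1.14), or 1.70-fold higher in replicate 2. Its interval overlapped that of none of the 8 other genes, although the upper limit of CARS, 0.38, came close to its lower limit.

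Intervals left out a ratio of 1 on the lower side for AARS, GARS, SARS and TARS among the 7 genes with at least 100 summed counts, beside 22.3% of the 2239 IDs. HARS alone did so on the higher side, beside 15.6%. WARS also did so on the lower side, which made 5 of all 9 genes. The intervals of these 5 all took in -0.07, the median log2 ratio of the 2239 IDs, and that of HARS did not. Among IDs with at least 20 summed counts, the minimum that takes in all 9, the shares were 12.9% lower and 13.4% higher. Such shares move with the minimum, since deeper IDs have narrower intervals.

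Of the 7 genes, HARS lay beyond 1.5-fold, beside 20.4% of the 2239 IDs. WARS did so too, and with at least 20 summed counts the share of IDs was 38.1%. None of the 9 genes lay beyond 2-fold, where the share was 5.14% with at least 100 summed counts and 15.8% with at least 20. With 99% intervals HARS was the only gene whose interval left out 1, while 27.1% of the 2239 IDs did so in either direction. The summed counts of the whole set gave a log2 ratio of -0.23 (-0.36 to -0.09). Those of the other 8 genes, 1148 and 577.5, gave -0.38 (-0.53 to -0.23), with HARS left out after its value was seen.

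**Figure D3:**
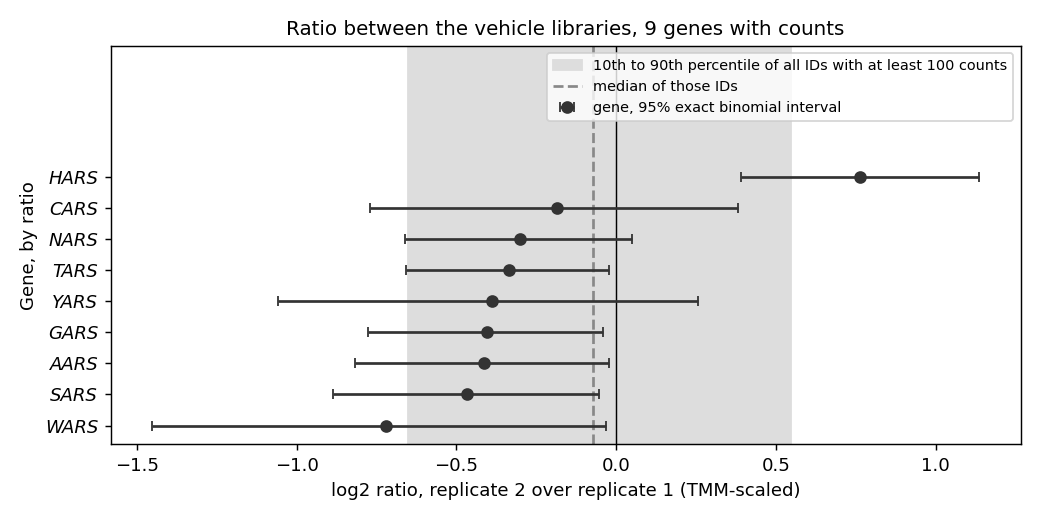
TMM-scaled log2 ratio of replicate 2 over replicate 1 (x axis) for the 9 genes with counts (y axis); bars are 95% exact binomial intervals, the grey band spans the 10th to 90th percentile of the 2239 IDs with at least 100 summed counts (-0.65 to 0.55), and the dashed line is their median, -0.07. Of the genes, 8 lie below 0, WARS lies below the band at -0.72 and HARS lies above it at 0.76. WARS and YARS, with 88 and 93 summed counts, do not reach the minimum set for the band.

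HARS was also set against the other 8 genes with counts within each library, which needs no scaling between libraries. For every 100 fragments on those 8, HARS had 10.2 in replicate 1 and 22.5 in replicate 2, a 2.21-fold difference (95% exact binomial interval 1.71 to 2.86). HARS made up 9.25% of the set's fragments in replicate 1 (95% exact Clopper-Pearson interval 7.71 to 10.98) and 18.4% in replicate 2 (15.6 to 21.4). The share of TARS was 19.5% (17.4 to 21.8) and 18.1% (15.3 to 21.1), with intervals that overlapped. Each of the other genes with counts also had overlapping intervals. HARS was chosen for this comparison after its value was seen, so the difference is a description of these libraries. Of the 2239 IDs, 95.7% had a lower ratio than HARS, and 7.82% had a lower ratio than WARS. With 88 summed counts, WARS did not itself reach the minimum set for those IDs. How the authors' counting divided fragments between HARS and its paralog HARS2 was not tested, so the counts of HARS are uncertain to that extent.

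**Figure D4:**
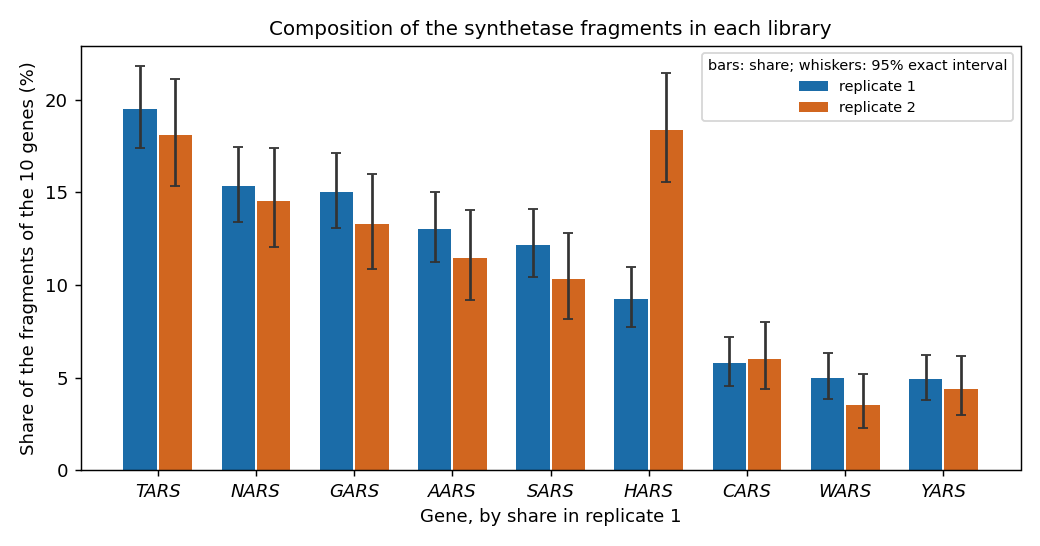
Share of the fragments of the 10 genes that fell on each of the 9 genes with counts (y axis, %; x axis, gene); bars are the 2 libraries and whiskers are 95% exact intervals. HARS goes from 9.25% in replicate 1 to 18.4% in replicate 2, and the whiskers of each other gene overlap between libraries.

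The spread of the 9 ratios around a common value, as a chi-square statistic over its degrees of freedom, was 4.56, where independent counting alone gives about 1 on average. Over the 2239 IDs, many of them with more counts, which raises this statistic at the same spread of ratios, it was 12.8. Without HARS, left out after its value was seen, it was 0.284 over the other 8 genes. By class, the summed counts of the 3 class I genes with counts gave a log2 ratio of -0.40 (95% exact binomial interval -0.77 to -0.05). The 6 class II genes, HARS included, gave -0.20 (-0.34 to -0.05), so the classes did not separate beyond counting error. The 5 genes with a TGATGNAA match had log2 ratios from -0.41 in AARS to -0.19 in CARS, and the 3 with windows but no match had -0.72 in WARS, -0.47 in SARS and 0.76 in HARS. The values of SARS and WARS lay below those of the 5 genes, with intervals that overlapped theirs, and that of HARS lay above. The motif was chosen after the data were seen.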

How the data were processed

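Ribosome-protected fragments were measured in 2 HEK293 vehicle libraries. The authors deposited estimated counts per Ensembl ID for fragments of 27 to 29 nt, unscaled, with 1 column per library, per the labels and the design text. Per the labels' protocols, fragments of 20 to 38 nt were purified without depletion of ribosomal RNA. The submitters' processing notes name hg19 as the build. What aligner, counter, annotation and strand setting the authors used is not given in the sources used here.

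The members and lists were chosen with earlier results of these data known. All 10 members are named by rule. Other tRNA synthetase genes were to be counted as a list but could not be paired with IDs, and coding lengths were not used here. Motifs were chosen after the data were seen. RefSeq windows and neighbours are on GRCh38.p14 and carry no values of the table.

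Shares used the deposited values with exact Clopper-Pearson intervals. Ratios used values rounded to whole numbers and TMM factors (edgeR 4.0.16, R 4.3.3) over IDs with at least 20 summed counts, with conditional exact binomial intervals at 95%. The background was every ID with at least 100 summed counts and a finite ratio. With 1 group no p-value was computed. Steps were tested on simulated data whose only spread between libraries, apart from set fold changes, was counting error. Spread beyond counting error was therefore not covered. Alternatives changed the scaling (DESeq2 1.42.0, library size, no filter, or without the 2 highest IDs), the count minimum, the fold limit (1.5) and the interval (99%), or left out a replicate. Python 3.11.15, numpy 2.4.6, scipy 1.17.1 and pandas 2.3.3 were used.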

Additional observations from a re-analysis of the deposited data

How the results depend on the processing

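Under library-size, unfiltered TMM and DESeq2 scaling and with the 2 highest IDs left out, HARS was the only gene higher in replicate 2 and no gene lay beyond 2-fold. The median log2 ratio of the 9 genes was -0.50 by library size, where that of all IDs with at least 100 counts was -0.18, and -0.40 without HARS, an alternative chosen after seeing the data. NARS also had an interval leaving out 1 by library size and by unfiltered TMM, which made 7 genes in place of 6, while the share of all IDs with at least 100 counts went from 38.0% to 43.4% and 41.8%. A 1.5-fold limit gave 2 genes in place of 0, beside 20.4% of IDs with at least 100 counts and 38.1% with at least 20. With 99% intervals, 1 gene in place of 6 left out a ratio of 1, and 27.1% of those IDs, since the intervals are wider. With minimums of 20 and 300 counts that share was 26.3% and 50.2% at 95%, and the share beyond 2-fold was 15.8% and 2.57%. The share of all counts was 0.164% without the 2 highest IDs in the total, which follows from the smaller total, and 0.116% to 0.146% with a single library. The ratio of highest to lowest gene ran from 3.98 to 5.20 with a single library. Levels per coding length were not run. No paired analysis was possible because the labels give 1 group. At 154 to 247 counts a gene in the deeper library, ratios near 1.3-fold were close to the limit of counting error. At 62 counts, in YARS, a 1.31-fold lower value lay well within counting error.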
